A study of Mus musculus with 8 samples.

Results

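Of 1497668 autosomal windows of 1 kb (tiles) read by oxidative bisulfite sequencing of the whole genome (WGoxBS), 338 were low in 5-methylcytosine (5mC) in resting B cells and high in naive T cells. Members were taken by their level, the methylated share of the reads over the CpGs of a tile, which had to be under 25% in both B cell libraries and at least 75% in both T cell libraries. A tile was tested where 5 or more CpGs were listed in all 4 libraries and each library held 20 or more reads there. A listed CpG had at least 5 reads, so every tile with 5 of them passed the limit of 20 reads. Members made up 0.0226% of the tested tiles, and 1759 tiles (0.117%) had the reverse pattern, under 25% in both T cell libraries and at least 75% in both B cell libraries. Both sets were chosen on the B and T levels, so those levels are given as a description and no test of them is made.

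The cells came from spleens of C57BL/6J mice aged 6 to 8 weeks, with cells of several mice pooled in a sample. CD43- resting B cells and naive CD4+ T cells (CD62L high, CD44 low, CD25-) of each sex gave 4 groups of 2 samples. A group's values stood in a single file, whose name carries the number of only 1 of its 2 samples. Whether that file joins both samples is not given in the sources used here. Each group therefore counts as 1 library, and no value has a standard deviation between replicates. In WGoxBS unmodified cytosine is read as T, and an oxidation step before bisulfite is meant to make 5-hydroxymethylcytosine read as T too. A level is an average over a pool of sorted cells, so fewer cells with methylated DNA and fewer methylated CpGs per cell cannot be told apart.

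In mammals most CpGs are methylated, and the regions that stay low are mainly gene starts and the enhancers in use in a cell type. Enhancers bound by transcription factors lose 5mC as a lineage forms, so a tile that is low in only 1 of a pair of related cell types often lies at an enhancer of that type. In B cells the lineage is set by EBF1, PAX5 and E2A (encoded by Tcf3), with PU.1, IRF8 and the octamer-binding factors acting beside them.

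The libraries held 279600268 to 353550700 reads at autosomal and X CpGs, with a median of 14 to 17 reads per listed autosomal CpG, lowest in male B cells. Promoters (1 kb on either side of a gene start) of B and T cell marker genes went in the direction of the sort labels. The lists were drawn up with earlier results of these data known, and the promoters of Cd79a, Ms4a1, Cd22 and Fcrla overlap members. All 8 B cell markers tested (such as Cd79a and Ms4a1) were lower in both B cell libraries than in both T cell libraries, with median levels of 10.7% and 13.3% against 62.9% and 59.1%. All 8 T cell markers (such as Cd3e and Lck) were lower in both T cell libraries. Of 8 myeloid markers 3 were lower in B cells and 3 in T cells, with medians between 60.6% and 67.2% in the 4 libraries. The same counts were 1 and 3 of 6 natural killer markers, and 2 and 1 of 4 plasma cell markers.

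Sequences of 5 members are shown first, since a single run of bases is read as T at its CpGs in one cell type and as C in the other. They are 200-base windows of the RefSeq copy of GRCm38.p6, plus strand, with each CG in capitals: the second largest difference of all (upstream of Cecr2, chr6:120636349-120636548), a member that holds a gene start (Ms4a1, which encodes CD20, chr19:11266463-11266662), the longest row of members (in Blnk, chr19:40993504-40993703), and the strongest members at listed B cell receptor and transcription factor genes (3' of Cd79b, chr11:106310001-106310200, and within Irf8, chr8:120747309-120747508).
Cecr2: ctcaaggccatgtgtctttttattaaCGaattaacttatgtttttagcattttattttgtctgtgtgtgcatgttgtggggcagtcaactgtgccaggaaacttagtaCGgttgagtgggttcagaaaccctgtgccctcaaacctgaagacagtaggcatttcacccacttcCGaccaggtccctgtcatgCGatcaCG
Ms4a1: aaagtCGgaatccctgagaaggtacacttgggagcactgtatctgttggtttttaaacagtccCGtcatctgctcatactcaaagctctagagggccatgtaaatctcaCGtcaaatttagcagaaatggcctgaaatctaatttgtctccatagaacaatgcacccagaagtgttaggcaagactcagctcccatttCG
Blnk: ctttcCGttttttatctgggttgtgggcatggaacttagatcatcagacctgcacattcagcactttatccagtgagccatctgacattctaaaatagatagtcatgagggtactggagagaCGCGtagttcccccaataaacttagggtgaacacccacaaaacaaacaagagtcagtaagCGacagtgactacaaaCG
Cd79b: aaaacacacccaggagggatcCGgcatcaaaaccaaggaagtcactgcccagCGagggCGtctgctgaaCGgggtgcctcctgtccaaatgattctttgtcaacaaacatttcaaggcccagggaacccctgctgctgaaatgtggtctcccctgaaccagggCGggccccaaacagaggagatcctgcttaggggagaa
Irf8: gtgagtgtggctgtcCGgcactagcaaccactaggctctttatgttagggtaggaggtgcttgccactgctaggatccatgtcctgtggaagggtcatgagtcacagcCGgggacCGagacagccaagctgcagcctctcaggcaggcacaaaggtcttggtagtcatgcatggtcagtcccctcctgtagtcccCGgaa

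Over the 5 CpGs of the Cecr2 window the mean CpG level was 2.76% in female B cells and 1.82% in male B cells, against 100% in female T cells and 95.6% in male T cells. The 4 CpGs of the Ms4a1 window averaged 0% and 4.38% in female and male B cells, and 93.6% and 96.4% in the T cells. The 5 windows hold 4 or 5 CpGs each.

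The 338 members had medians of 15.2% (female B cells), 15.3% (male B cells), 86.8% (female T cells) and 87.5% (male T cells). The mean B level ran from 0% to 24.5% and was under 10% in 83 members, between 10% and 20% in 180 and above that in 75. The mean T level reached 90% or more in 118 members. The B minus T difference ranged from -96.4 to -54.3 percentage points, with a median of -72.4. Of 3684 CpGs pooled over members, 76.9% were under 25% in female B cells and 76.1% in male B cells. At 75% or more were 84.2% in each T cell library. The other way, 5.92% and 5.56% were at 75% or more in female and male B cells. In female and male T cells 0.787% and 0.733% were under 25%. The rule limits the level over these same CpGs, so the shares are a description and give no result per tile. A member had a median of 176.5, 148, 182.5 and 183.5 reads in female B, male B, female T and male T cells, and the widest 95% Wilson interval of any member in any library spanned 23.1 points. These are sums over CpGs, and neighbouring CpGs often sit on the same read, so such a read was counted at each of them. The intervals take the counts as independent, and there are no molecular identifiers. They are therefore too narrow even for counting error and hold no spread between animals.

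**Figure D1:**
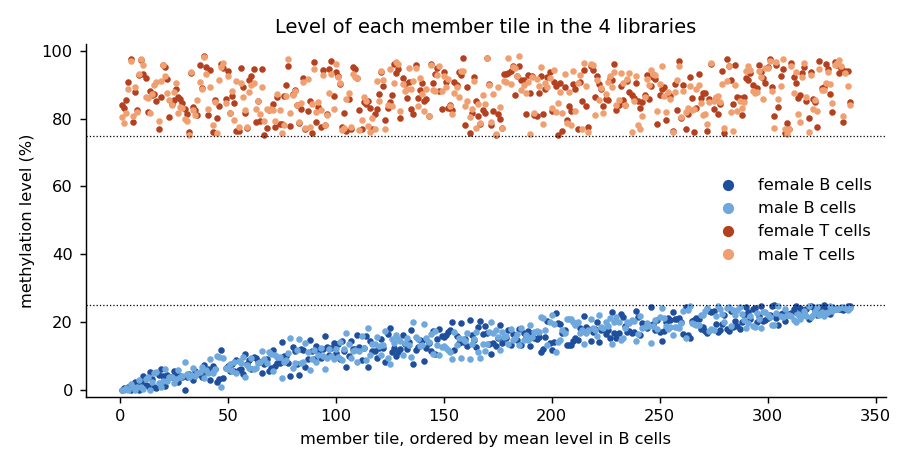
Methylation level (%) of each of the 338 members in the 4 libraries, 1 point per library, with members ordered along the x axis by their mean level in B cells; dotted lines mark 25% and 75%. Points of the B cell libraries lie under 25% and points of the T cell libraries at 75% or more, because the members were chosen so.

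The largest difference lay in an exon-bearing tile of Memo1 (chr17:74201001-74202000), a gene linked to cell motility, at 0% and 1.75% in female and male B cells and 97.6% and 97% in female and male T cells. It rested on 5 CpGs and on 58 reads in female B cells. The tile upstream of Cecr2, a chromatin remodelling gene, read 2.48% and 0.901% in B cells against 97.2% and 97.4% in T cells. An intergenic tile 14727 bp upstream of Sowaha (chr11:53495001-53496000) read 7.27% and 3.64% against 98.5% and 98.2%. Others among the 10 largest differences lay in Cenps, a kinetochore and DNA repair gene (4.24% and 0.383% against 93.3% and 95.8% over 21 CpGs), upstream of Wdfy4 (1.09% and 6.08% against 95.4% and 92.5%), in Plppr1 (3.66% and 9.29% against 94.9% and 96.5%) and in Plcl1 (1.03% and 0% against 90.7% and 88.6%).

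Members stood just inside the limits as well. The highest B level kept was 24.9% in female B cells, in a tile of Ttc7b (chr12:100348001-100349000) that read 22.0% in male B cells and 89.2% and 88.3% in female and male T cells. Just outside was a tile nearest to Mgat4a (chr1:37601001-37602000) with 25% in female B cells, 17.6% in male B cells and 84.2% and 82.5% in T cells. At the other limit, a tile nearest to Bdkrb2 (chr12:105552001-105553000) was kept at 75.1% in female T cells, whereas one nearest to Asph (chr4:9649001-9650000) was left out at 74.8%.

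Members lay mostly away from gene starts. The median distance to the nearest start of a protein-coding gene was 34085.5 bp, beside 51772.5 bp over all tested autosomal tiles and 25626 bp over the tiles low in T cells. Such a start was held by 5 members (1.48%, beside 1.15% of all tested tiles and 0.91% of the tiles low in T cells), and 10 lay within 1 kb of one. Within 5 kb were 46 (13.6%, beside 10.4% and 16.4%) and within 10 kb were 72 (21.3%, beside 17.9% and 27.7%). Within 50 kb were 207 members (61.2%, beside 49.2% and 69.7%), and 67 (19.8%, beside 35% and 13.0%) were more than 100 kb away. By median distance and the shares within 5 kb to 50 kb, members were thus nearer to gene starts than tested tiles at large and farther than the tiles low in T cells. They lay in promoters at a like share (2.96%, beside 3.26% and 2.84%). The share that held a start was slightly above both other sets, on 5 members. These shares are descriptive, since neighbouring tiles are not independent.

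By annotation, 164 members were intronic (48.5%), 93 intergenic (27.5%), 71 overlapped an exon (21%) and 10 a promoter. All tested tiles were 38.2% intronic, 42.7% intergenic and 15.8% exonic, and the tiles low in T cells 56.1%, 19.9% and 21.2%. Exons and introns were those of any annotated gene, and promoters those of protein-coding genes only. The body of a protein-coding gene held 207 members (61.2%, beside 48.8% of all tested tiles and 72.5% of the tiles low in T cells). Within their own gene these lay a median of 37126 bp past its start, 53 of them in its first 10 kb, and for 62 the start of another gene was nearer. So the nearest gene start is often not that of the gene that holds the tile.

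**Figure D2:**
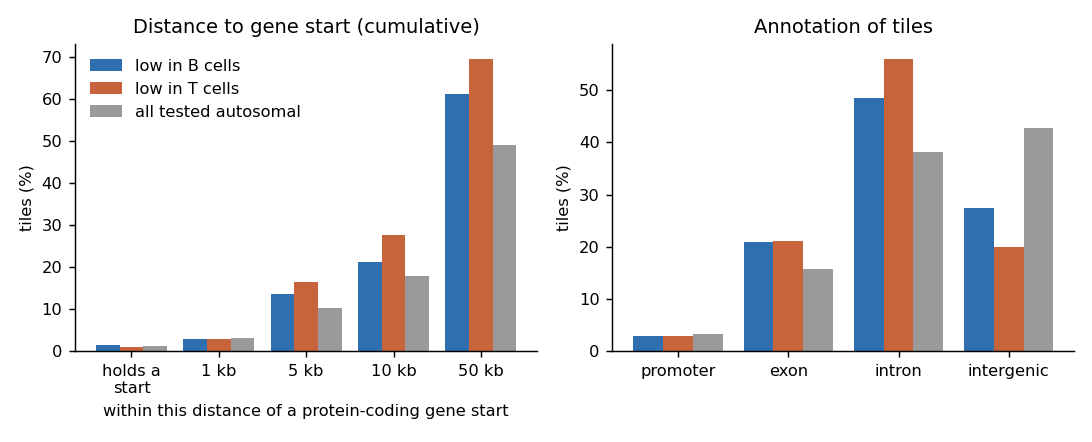
Left, cumulative share of tiles (%) that hold or lie within a given distance of a protein-coding gene start; right, share of tiles (%) by annotation, for the 338 members (low in B cells), the 1759 tiles low in T cells and all 1497668 tested autosomal tiles. Members reach 21.3% at 10 kb and 61.2% at 50 kb, between the other sets, and promoters hold 2.96%, 2.84% and 3.26% of the sets.

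The 5 members that held a gene start belonged to 4 genes of the B lineage or of immune cells and to Flrt1, whose start lies inside Macrod1. Ms4a1 read 0% and 3.03% in female and male B cells against 93.0% and 93.2% in T cells. Fcrla, a B cell Fc receptor-like protein, read 16.2% and 12.5% against 90.7% and 89.4%. Igll1, which encodes the lambda5 part of the surrogate light chain, read 19.4% and 18.8% against 92.2% and 93.1%. Ly86, the partner of the receptor CD180, read 24.0% and 23.8% against 95.9% and 96.3% over 31 CpGs. The Flrt1 tile read 14.0% and 22.0% against 90.1% and 85.4%. Farthest from a protein-coding start were tiles 588034 bp upstream of Mef2c (chr13:82915001-82916000, 24.5% and 22.2% against 97.1% and 94.6%) and 528051 bp upstream of Clint1 (chr11:45323001-45324000, 0.595% and 0% against 83.1% and 78.8%). A tile 414444 bp upstream of Tox and a pair of adjoining tiles 410051 and 409051 bp upstream of Clint1, in an intron of the noncoding gene Gm12162, came next. The start of any annotated gene was nearer, at 149457 bp from the Mef2c tile and 26611 bp from the Clint1 tile at chr11:45323001-45324000.

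Members seldom formed longer stretches. Joined across gaps of up to 2 kb, the 338 members made 315 stretches, of which 295 were a single tile, 18 held 2 tiles and 2 held more. The 43 members in stretches of 2 or more were 12.7% of all members, whereas 34.9% of the tiles low in T cells were in such stretches, the largest of 29 tiles over 31000 bp. Another member lay within 10 kb of 61 members (18.0%, beside 45.7% for the tiles low in T cells) and within 100 kb of 105 (31.1%, beside 64.5%). The T-low set has more tiles, which by itself shortens the gaps between its tiles, so these shares are not a comparison of equal densities.

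The stretch with the most tiles covered 4 tiles of Blnk, the adaptor that links the B cell receptor to its downstream enzymes. It ran from 535 bp past the gene start into the first part of the gene (chr19:40990001-40994000, 63 CpGs), at 17.9% in female B cells, 19.1% in male B cells and 93.5% in both T cell libraries. The longest by span was in Chst3, a sulfotransferase gene, with 3 tiles over 5000 bp (chr10:60213001-60218000) at 11.9% and 11.5% against 85.5% and 85.3%. Stretches of 2 tiles lay upstream of Slc4a7 (4.88% and 4.05% against 83.5% and 83.2%), in Plppr1 (2.77% and 7.82% against 92.7% and 95%), in Prmt3 (7.85% and 3.56% against 80.3% and 87.8%), upstream of Cecr2, upstream of Wdfy4, in Irf8, in Vpreb3 and in Pik3c2b.

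Around a member the level in B cells approached that in T cells within a few kb. The median level of tested tiles 1 kb before a member was 72.8% in female B cells and 90.9% in female T cells, and 1 kb after it 66.1% and 90.5%. At 5 kb on either side all 4 libraries had medians between 90% and 92.2%. Of 541 tested tiles that adjoin a member and are no member, 207 (38.3%) were called lower in B cells by edgeR at an adjusted p under 0.05 and 20 points, beside 0.823% of all tested autosomal tiles, and 3 were called higher (beside 2.38%). This is the contrast that chose the members, and the flanks share its stretch of DNA, so nothing is read from it. The run of consecutive CpGs under 50% in B cells that a member held had a median of 10 CpGs and 685.5 bp, and passed 1 kb in 94 members (27.8%). For tiles low in T cells the same run had a median of 1009 bp and passed 1 kb in 50.3%. A run that crossed several tiles of a set was counted for each of them. A larger share of the T-low tiles lay in stretches, so these values do not compare distinct runs. Some of the longest runs were low in T cells too: around the member in Foxp1 (chr6:99519001-99520000) a run of 246 CpGs over 5028 bp averaged 4.05% in T cells, so that member is the edge of a region that both cell types keep low.

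**Figure D3:**
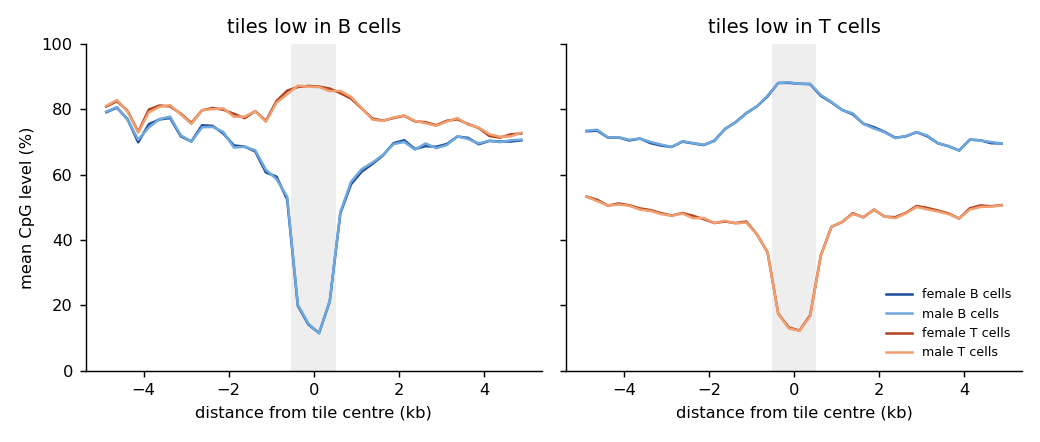
Mean CpG level (%) in bins of 250 bp by distance (kb) from the tile centre, for members (left) and for tiles low in T cells (right), 1 line per library; the grey band is the chosen tile. Around members the B cell lines lie slightly under the T cell lines at 5 kb and fall steeply toward the tile, whereas around T-low tiles the T cell lines stay well below the B cell lines out to 5 kb.

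Several listed gene groups were examined for members in the gene body or within 10 kb of the start. Over all 20780 autosomal protein-coding genes, 213 (1.03%) had such a member and 852 (4.10%) a tile low in T cells. Among 26 autosomal genes of B cell receptor signalling, 7 had a member (26.9%), namely Blnk, Cd22, Cd79a, Cd79b, Fcrla, Rasgrp3 and Vav2, and 1, Syk, had a tile low in T cells. Cd79a and Cd79b encode the signalling chains of the receptor, Cd22 an inhibitory lectin, Vav2 and Rasgrp3 exchange factors for small GTPases. Of 29 B lineage transcription factors, 4 had a member, namely Irf8, Pax5, Spib and Tcf3, and 4 others, Bach2, Ikzf1, Nfkb1 and Spi1, had a tile low in T cells. Of 26 B cell surface receptors, Fcrl5, Ly86 and Ms4a1 had a member, and Ccr7, Cxcr4, Cxcr5 and S1pr1, homing receptors also used by T cells, had a tile low in T cells. None of 11 MHC class II genes had either. Of the marker lists above, 6 of 8 B cell markers and none of the 8 T cell, 8 myeloid, 6 natural killer and 4 plasma cell markers had a member. These 6 markers are genes already named in the other lists, with the same tiles, and are not a separate result. Long genes have more room for a member, and the lists were drawn up with earlier results of these data known, so the counts are a description.

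At the receptor genes, the tile 3762 bp from the Cd79b start read 9.71% and 6.25% in female and male B cells against 94.7% and 90.5% in T cells. The Cd79a tile, 620 bp into the gene, read 13.8% and 9.21% against 86.6% and 82.9%. In Cd22 the tile 342 bp from the start read 9.38% and 12.4% against 77.4% and 82.4%. In Vav2 one of its tiles lay 115033 bp into the gene (12.8% and 6.63% against 87.4% and 86.9%). So Cd79a, Cd22 and Blnk carried their member close to the start, and Vav2 deep in the gene. Among the transcription factors, the Irf8 members lay 9643 and 10643 bp from its start, the farther one at 4.60% and 5.43% against 95.7% and 90.8%. The Tcf3 tile read 4.29% and 2.11% against 77.0% and 79.4%, and the Spib tile 11.3% and 10.3% against 83.3% and 84.9%. The Pax5 tile, in an intron 38487 bp past the start (chr4:44671001-44672000), read 6.67% and 18.2% against 85.2% and 77.8%.

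**Figure D4:**
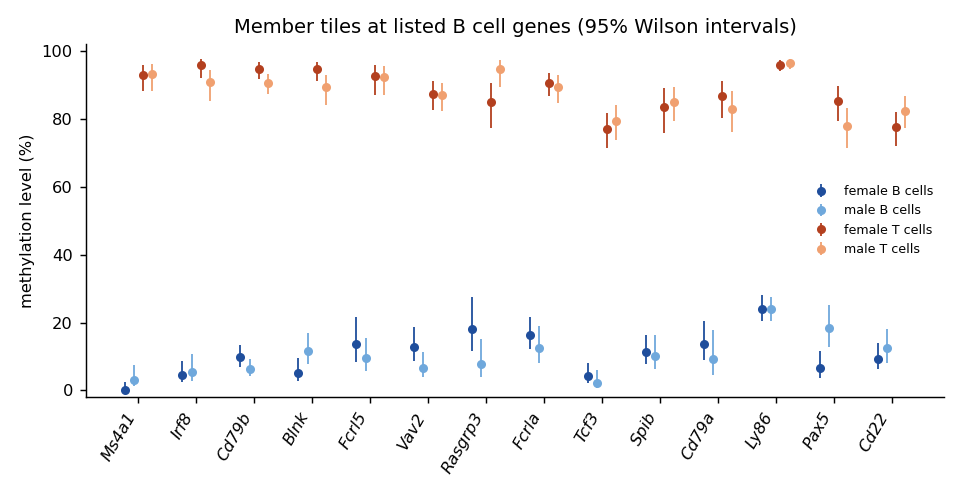
Methylation level (%) with 95% Wilson intervals in the 4 libraries for the member with the largest difference at each listed B cell gene that had one, ordered by difference. B cell points lie under 25% and T cell points above 75% at each gene, as the members were chosen. The intervals take the counts at each CpG as independent, so they are too narrow even for counting error.

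By number of members, Gm20388 led with 6, an annotation of 4434882 bp that runs over Irf8, Zdhhc7 and other genes. Blnk and Zcchc7 had 4 each. Zcchc7 lies beside Pax5, and its tiles, in introns between chr4:44852001 and chr4:44919000, read 11% to 15.2% in female B cells, 12.1% to 17% in male B cells, 81.0% to 96.1% in female T cells and 81.6% to 96.0% in male T cells. There were 3 each in or beside Cyth1, Pik3c2b, Bcar3, Chst3, Gm867, Vpreb3 and Fgfr2. Of the genes ranked here, Gm20388 also had 4 tiles low in T cells, Fgfr2 had 2 and Cyth1 had 1, and the others had 0. Gm867 and Vpreb3 are neighbours and share their tiles, and the Fgfr2 annotation of 2960900 bp runs over Lhpp and Fam53b, which hold its tiles.

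Members at immunoglobulin and surrogate light chain genes were looked at after their values were seen. The heavy chain cluster (chr12:113254830-116010093) held 1 member, over the joining segment Ighj4 (chr12:113428001-113429000), a locus that B cells cut and rejoin. It read 0% and 8.33% in female and male B cells, on 70 and 60 reads, and 82.9% and 79.8% in T cells, on 111 and 89 reads. A second member lay 25830 bp beyond the constant-region end of the cluster (chr12:113228001-113229000) at 1.49% and 3.23% against 92.1% and 86.4%. The 2 were among 818 tested tiles in or within 100 kb of the cluster. No member lay in or within 100 kb of the light chain clusters Igk and Igl, among 1139 and 128 tested tiles, too few to expect a member at the overall share of 0.0226%. Of the genes for the surrogate light chain, which pre-B cells use before a light chain is made, Igll1 and Vpreb1 each held a member (Vpreb1 15.9% and 12.6% against 82.9% and 88.2%). The related Vpreb3 held 2 (12.3% and 12.4% against 84.8% and 86.4%, and 5.53% and 4.24% against 82.7% and 81.2%).

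Members were somewhat richer in GC and poorer in repeats than tested tiles at large, at a like CpG ratio. The median GC content was 46.35%, beside 43.8% in all tested autosomal tiles and 45% in tiles low in T cells, and the observed to expected CpG ratio was 0.199, beside 0.204 and 0.213. Repeat-masked bases made up a median of 16.35% of a member, beside 21.3% and 17.5%. The density per chromosome ran from 0.946 members per 10000 tested tiles on chromosome 15 to 3.65 on chromosome 19. Read depth in B cells relative to T cells, scaled by all tiles, had a median of 0.972 in members and 1.05 in tiles low in T cells.

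The letters CCCNNGGGA of the EBF motif, searched on both strands over the whole tile, were found in 128 members (37.9%), beside 10.9% of all tested autosomal tiles and 8.70% of the tiles low in T cells. The octamer ATGCAAAT was in 41 members (12.1%, beside 7.19% and 4.09%). The kappaB letters GGGANTTTC were in 6.21% (beside 3.50% and 3.47%) and the E-box CAGGTG in 62.1% (beside 50.6% and 57.2%). The other shares were those of the PU.1 letters GAGGAAGT (7.4%, beside 6.20% and 5.91%), the ETS-IRF composite GGAANNGAA (33.4%, beside 28.4% and 27.6%), the ISRE letters AAANNGAAA (45.3%, beside 43.5% and 44.5%), MEF2 CTAAAAATA (2.37%, beside 2.27% and 1.99%) and CTCF AGGGGGCNC (3.25%, beside 1.94% and 2.33%). The letters of factors known from T cells, ATCAAAG for TCF-LEF (15.1%, beside 17.1% and 23.1%) and AGATAAG for GATA factors (10.4%, beside 13.0% and 16.1%), were least frequent in members, and RUNX TGTGGTT was in 24.9% (beside 21.8% and 31.6%). Some motifs share letters and can overlap, as EBF and kappaB do in GGGA. A match is a description of the sequence and not a bound site, and no share was tested. Members were richer in GC than all tested tiles, and bands of GC content are given below for the EBF letters only. The other shares, those of the T cell factors included, are not adjusted for it.

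The EBF letters were more frequent in members than in the tiles around them. Tested tiles 1 to 5 kb away held them in 10.4% to 16.3% of cases at a median GC content of 45.65% to 46.5%, close to that of members. Of the 128 members with the letters, 115 (89.8%) had a match inside the run of CpGs under 50% in B cells, which covered a mean of 56.8% of these tiles. The first share counts tiles, which can hold several matches, and the second counts bases, so they are not like measures. Within bands of GC content the share was higher in members too: 32.0% of members with 40% to 45% GC, beside 8.19% of all tested tiles and 6.65% of the tiles low in T cells, and 37.9% of those with 45% to 50% GC, beside 13.7% and 10.3%. Both EBF and octamer letters were in 17 members, and either in 152. Members with and without the EBF letters had median B levels of 15.5% and 15.0% and lay a median of 27124 and 36494.5 bp from a gene start. The comparisons by distance and GC content were added after the motif shares were seen.

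**Figure D5:**
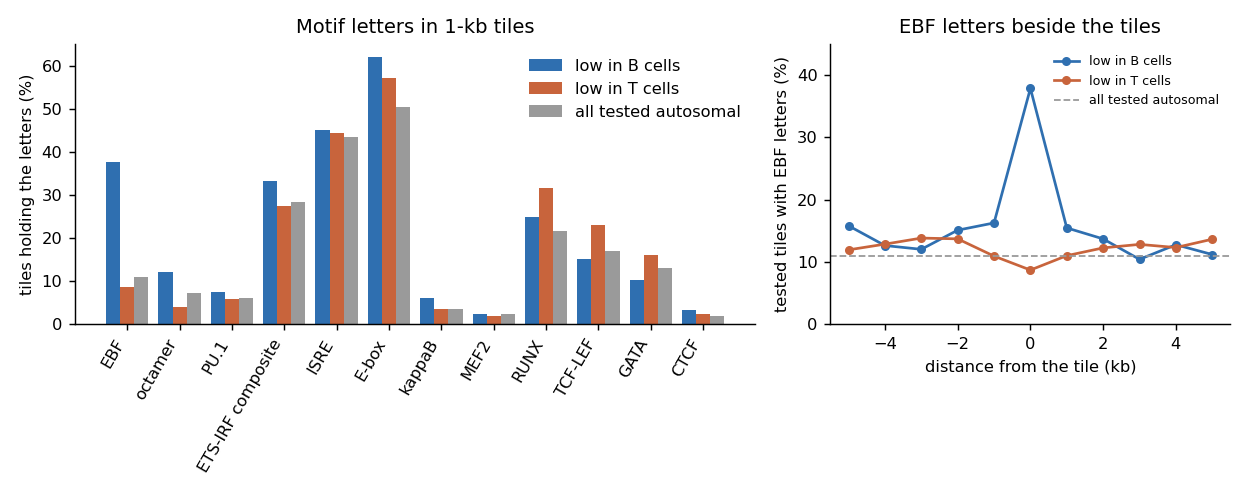
Left, share of tiles (%) that hold the letters of each motif on either strand, for members (low in B cells), tiles low in T cells and all tested autosomal tiles; right, share of tested tiles (%) that hold the EBF letters by distance (kb) from the tile, with a dashed line for all tested autosomal tiles. The EBF share is 37.9% in members and 16.3% or less in the tiles around them.

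Windows of 100 bases around the EBF letters are shown for 3 of the members with the largest differences that have them outside exons, in an intron of Plppr1 (chr4:49284734-49284833), 108013 bp from Zfp36l1 (chr12:80004449-80004548) and beside the heavy chain cluster (chr12:113228344-113228443), from the RefSeq copy of GRCm38.p6, plus strand, with the EBF letters in capitals.
Plppr1: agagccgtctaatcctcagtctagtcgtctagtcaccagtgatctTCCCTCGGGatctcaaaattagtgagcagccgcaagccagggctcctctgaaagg
Zfp36l1: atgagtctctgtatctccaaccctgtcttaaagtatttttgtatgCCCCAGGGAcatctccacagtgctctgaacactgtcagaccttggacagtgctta
Tmem121: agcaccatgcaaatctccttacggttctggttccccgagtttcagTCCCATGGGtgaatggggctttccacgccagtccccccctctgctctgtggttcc

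The Plppr1 and Tmem121 windows have the letters on the minus strand, and the Tmem121 window, named for the nearest gene start, also holds the octamer letters. These tiles read 3.66%, 5.29% and 1.49% in female B cells, 9.29%, 6.04% and 3.23% in male B cells, and 86.4% or more in each T cell library.

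Sex was tested for every tile in a fit over all 4 libraries. Since the rule required the female and the male library alike to be under 25% in B cells and at 75% or more in T cells, it held the sex difference of every member under 25 points within each cell type, so the values below are a description and nothing is read from them against the share of all tiles. No member was called between females and males by edgeR at an adjusted p under 0.05 and 20 points, beside 0.00134% of all tested autosomal tiles, and the smallest adjusted p of a member was 0.654. At an unadjusted p under 0.05 edgeR gave 17 members (5.03%, beside 4.8% of all tested autosomal tiles), and limma gave 11. The difference between the sexes in the B minus T contrast, fitted with cell type and without a sex term so that 1 degree of freedom was left for the spread, gave no called member either (beside 0.000134% of all tested autosomal tiles), with a smallest adjusted p of 0.882 by edgeR, 19 members at an unadjusted p under 0.05 (5.62%, beside 4.35% of all tested autosomal tiles) and 13 by limma. Females exceeded males by a median of 0.00163 points (B cells) and 0.15 points (T cells), beside 0 and 0.146 points over all tested autosomal tiles. In size, the difference had a median of 2.99 points (B cells) and 2.3 points (T cells), beside 2.36 and 2.41 points. It passed 10 points in 17 (B cells) and 5 (T cells) of 338 members, beside 54713 and 55840 of all 1497668 tested autosomal tiles.

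The largest mean sex difference of a member was -11.2 points, in a tile nearest to Pou1f1 (chr16:65315001-65316000), with an adjusted p of 0.891 in edgeR. In the Rasgrp3 tile the B level was 18.2% in females and 7.78% in males, and the T level 85.0% and 94.7%, so females were higher in B cells and lower in T cells, at an adjusted p of 1 in edgeR for that contrast. With the sex difference limited by the rule and 1 library per group, these values do not show that the sexes were alike at members.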

How the data were processed

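The authors deposited 1 file per group, with 1 methylation level per CpG as a fraction and its reads as a count, for CpGs with at least 5 reads. Per the labels' processing notes, reads went through Trim Galore, FastQC and Bismark 0.13.1 with mm10; removal of duplicates and joining of samples are not given in the sources used here. All 20645953 listed positions fell on a CG of the reference, and each fraction equalled, with no tolerance, a whole number of methylated reads over its count, rounded up to 3 decimals. This fixes that number at up to 1000 reads per CpG; at the 618 to 918 CpGs per library with more, the highest matching number was taken, and no member tile held over 758 reads. Uneven depth limits precision, least reads being in male B cells. Coordinates count from 1 on GRCm38, with GENCODE M21 genes.

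In each 1-kb tile, reads were added up over the CpGs that every library lists. All 1530528 tiles of the autosomes and X were fitted with edgeR 4.0.16 (glmQLFit, glmQLFTest) under R 4.3.3 (terms for library, methylation, cell type and sex, the last replaced by the sex by cell type contrast for that test), 1 residual degree of freedom and Benjamini-Hochberg adjustment over all tiles. limma served as an alternative. The scripts were tested on simulated data. Named were the stretches with most tiles, the 10 largest differences, holders of a gene start, the genes with most members, up to 4 members per gene list, the 5 farthest and the tiles at the limits. Members, lists and motifs were chosen with earlier results of these data known. Alternatives covered the minimum CpGs and reads, the limits, the tile size and place, the annotation and leaving out a library. Pools of mice without replicate files give no spread between animals.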

Additional observations from a re-analysis of the deposited data

How the results depend on the processing

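The number of members followed the rule's own limits. Requiring 10 CpGs gave 177 members, limits of 20% and 80% gave 165 and limits of 30% and 70% gave 629, while tiles of 500 bases gave 903 and tiles of 2 kb gave 60. It stayed within 1.5 times of 338 with 50 reads, unweighted CpG means, all CpGs of each library or shifted tiles, but unweighted means overlapped 275 of the 338 members and the 357 tiles shifted by 500 bases only 144. It ran from 380 to 454 when the rule was applied without 1 library. Stretches numbered 164 with 10 CpGs, 157 with limits of 20% and 80% and 571 with limits of 30% and 70%, against 315. The median distance to a gene start was 11902.5 bp to any annotated gene and 17745.5 bp to any transcript start of a protein-coding gene, against 34085.5 bp. These moves follow from the alternatives' own construction, which set other limits, use other tiles or count more starts. Both sex contrasts gave 0 called members with edgeR or limma, without the minimum difference and with 50 reads, and 11 to 20 members at an unadjusted p under 0.05. The rule limits the sex difference of every member, so the like counts across these settings are not read as stability. Leaving out 1 library was run for the sex difference only, not for its difference between cell types; those fits have no cell type term, gave 0 members at either threshold and say nothing on stability. No paired analysis was possible because the replicate numbers in the labels are not shared between groups and each group has 1 file. Depth of 14 to 17 reads per CpG, 1 library per group and pooled mice limit these values, and their intervals understate even the counting error.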
